A study of Mus musculus with 6 samples.

Results

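The genes described here are those that build and load the major histocompatibility complex (MHC) of the mouse, which carries the prefix H2. Members were all non-control probes on the array whose gene name started with H2- or was B2m, Tap1, Tap2, Tapbp, Cd74, Ciita, Psmb8 or Psmb9. This gave 47 gene names with 74 probes on 119 spots, of 27376 names with 41174 probes on 43379 spots on the whole array. Of the 74 probes, 65 lay on chromosome 17 in mm9, the build of the array files, and 4 had no mm9 position.

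RNA was taken from the spinal cord of male C57BL/6 mice aged 8 weeks and kept pathogen-free. There were 3 dhtkd1 null and 3 wild-type samples. Dhtkd1 encodes a mitochondrial enzyme of lysine breakdown, and the labels do not say which part of the gene was deleted or in what way. Each sample was hybridised to 1 single-dye array. Replicates are numbered, but nothing in the labels states that they are separate animals, so p-values measure the spread between these samples only.

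MHC class I molecules sit on nearly all nucleated cells as a heavy chain paired with B2m, the light chain, and show peptides made in the cytosol to CD8+ T cells. The peptides are made by the proteasome or its variant, the immunoproteasome, and moved into the endoplasmic reticulum by the TAP transporter. Class II molecules are pairs of an alpha and a beta chain on macrophages, dendritic cells, B cells and activated microglia, where they show peptides from the endosome to CD4+ T cells. The invariant chain Cd74 guards their groove until H2-DM exchanges it for peptide, and the coactivator Ciita drives their transcription. In the healthy central nervous system class II is sparse and found chiefly at the borders, such as the meninges and the spaces around vessels.

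Signals are given as log2 relative to the 75th percentile of their own array, so a value of 0 is that percentile itself. It lay between 983 and 1055 intensity units in null arrays and between 950 and 1012 in wild-type arrays. Between 78.4% and 82.0% of spots were well above background, and no spot was saturated. The arrays came from 2 slides. Slide 1 held null replicates 1, 2 and 3 and wild-type replicate 2, and slide 2 held wild-type replicates 1 and 3. Both Dhtkd1 probes were lower in every null sample than in any wild-type sample, by -1.08 and -1.07 on the log2 scale. Markers of spinal cord neurons, oligodendrocytes and astrocytes (7, 6 and 4 genes) were all above the filter used for testing. The text calls a sample by its group and replicate number.

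Probe sequences show how closely these genes resemble each other, which limits what a probe can tell apart. Class I and class II probes of 60 bases are printed from the array files, 5′ to 3′, with the bases that differ within each overlapping pair in capitals. H2-Ab1 A_51_P215242 (chr17:34401723-34401782, mm9) shares an overlap of 31 bases with H2-Ab1 A_52_P570717, which has no mm9 position. H2-L A_52_P313279 (chr17:35403132-35403191) shares 50 bases with H2-Q2 A_51_P219789 (chr17:35482113-35482172).
H2-Ab1 A_51_P215242: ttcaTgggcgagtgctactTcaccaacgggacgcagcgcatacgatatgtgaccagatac
H2-Ab1 A_52_P570717: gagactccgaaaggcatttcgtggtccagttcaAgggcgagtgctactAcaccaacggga
H2-L A_52_P313279: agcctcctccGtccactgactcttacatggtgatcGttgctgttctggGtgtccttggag
H2-Q2 A_51_P219789: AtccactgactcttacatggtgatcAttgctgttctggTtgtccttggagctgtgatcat
The H2-Ab1 pair differed at 2 of 31 overlapping bases and the H2-L and H2-Q2 pair at 3 of 50. The C57BL/6 strain carries no H2-L gene, so signal on the probes of that name comes from other class I transcripts. No probe carried the name H2-D1, the other classical class I gene of this strain. Values of class I heavy chain probes are therefore given per probe and not as levels of single genes.

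The 3 tested class II chain genes were measured, among others, by the following probes, shown because the widest spread between samples among the members was found on the class II chains. They lie at chr17:34420627-34420686 for H2-Aa, chr17:34404388-34404447 for H2-Ab1 and chr17:34452050-34452511 for H2-Eb1 (mm9).
H2-Aa A_51_P119760: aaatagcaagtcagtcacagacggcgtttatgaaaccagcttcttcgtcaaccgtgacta
H2-Ab1 A_51_P215237: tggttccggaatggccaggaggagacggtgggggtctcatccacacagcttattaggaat
H2-Eb1 A_51_P393226: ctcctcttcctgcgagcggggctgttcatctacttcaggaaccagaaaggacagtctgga

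No member passed the test. Of the 74 member probes, 58 probes of 33 genes passed the signal filter (well above background in 3 or more samples) and were tested. Of the 58, 56 were above background on all 6 arrays. With limma and Benjamini-Hochberg adjustment over all 33191 tested probes, 0 members had an adjusted p under 0.05, and neither did any other tested probe (0%). The smallest adjusted p was 0.505 among members and 0.0922 among all probes. At an unadjusted p under 0.05, 1 member was higher in null (background of all tested probes 5.51%) and 1 was lower (background 2.68%).

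The signs were uneven. In null samples 47 of 58 member probes were lower and 11 were higher, while 41.9% of all tested probes were lower. The median difference was -0.07 over members and 0.03 over all tested probes. Some members overlap in sequence or vary together, so these counts describe the probes and were not tested. Of the 58 members, 1 had all null samples above all wild-type samples (background 9.49%) and 5 had all null samples below (background 4.84%). An exact permutation test of 3 against 3 samples cannot give a p under 0.1, which was the value for each of these 6 probes. When wild-type replicate 3 was left out, 36 of 58 members were lower, and within slide 1 the count was 38.

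**Figure D1:**
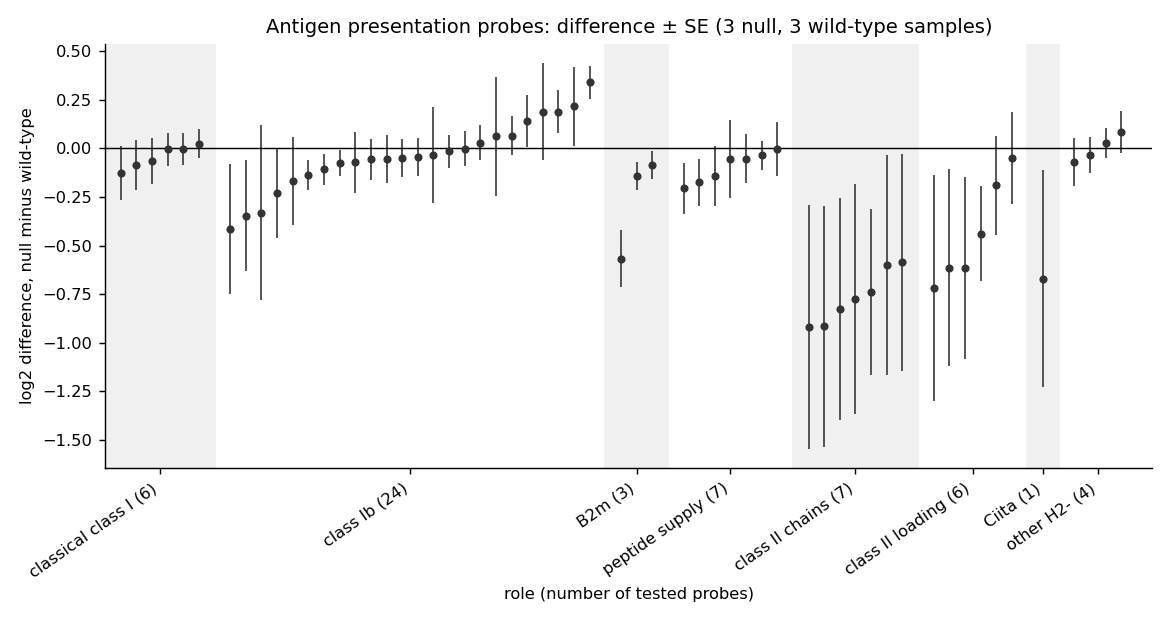
Log2 difference (null minus wild-type) of each of the 58 tested member probes with its standard error from limma, ordered by role along the x axis and by size within a role. The class II chains lie between -0.92 and -0.59 with wide errors, while the 6 classical class I probes lie between -0.12 and 0.02.

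Classical class I heavy chains present peptides to CD8+ T cells. The 6 tested probes named H2-K1 and H2-L, the second of which read other class I transcripts in this strain, differed by -0.12 to 0.02 between the genotypes with a median of -0.03. H2-K1 probe A_51_P198434 measured 2.43, 2.61 and 2.55 in null replicates 1, 2 and 3, against 2.45, 2.54 and 2.86 in wild-type replicates 1, 2 and 3. The groups overlapped, and wild-type replicate 3 was the highest sample. The difference was -0.08 with a standard error of 0.128 (limma, adjusted p = 0.860).

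The same sample stood out on most of these probes. Wild-type replicate 3 was the highest of the 6 samples on 5 of these 6 probes, and on 14.3% of all tested probes. Its array had the lowest 75th percentile of the 6, at 950, and the lowest share of spots well above background, at 78.4%. The part of this in the values was not tested. H2-K1 probe A_51_P190499 had the widest spread in the group, with 1.00, 1.13 and 1.07 in null samples against 1.03, 1.06 and 1.48 in wild-type samples. Without wild-type replicate 3 the median of the 6 probes was 0.04 and 0 of 6 were lower in null. H2-K1 probe A_52_P474242 did not carry this difference, with 0.09, 0.10 and 0.18 in null samples and 0.03, 0.14 and 0.13 in wild-type samples.

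The class Ib heavy chains of the Q, T and M regions, which are less variable relatives with narrower or specialised roles, gave 24 tested probes of 13 genes. Of these, 8 were higher and 16 lower in null, with a median of -0.05. The H2-Q5 probe A_52_P152133 (chr17:35532389-35532448, mm9) was the only member above the wild-type range in every null sample. It measured -2.03, -1.86 and -1.88 in null samples, against -2.34, -2.26 and -2.19 in wild-type samples. The groups were separate, and the difference was 0.34 with a standard error of 0.0854 (limma, unadjusted p = 0.00734, adjusted p = 0.505). Within slide 1 it was also 0.34.

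H2-M3, which presents peptides that begin with formyl-methionine, was measured by a pair of probes with opposite signs. Probe A_51_P469968 gave -1.18, -1.26 and -1.13 in null samples, against -1.06, -1.09 and -1.00 in wild-type samples, with no overlap. This was a difference of -0.14 (limma, adjusted p = 0.662). The other probe, A_52_P490263, differed by 0.19 with overlapping groups.

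H2-T22, a ligand of some gamma delta T cells, also had 1 probe with separate groups. Probe A_51_P432538 gave 2.00, 1.97 and 2.02 in null samples, against 2.05, 2.07 and 2.10 in wild-type samples, a difference of -0.07 (limma, adjusted p = 0.771). Its other probes differed by -0.11 and -0.02 with overlapping groups.

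H2-T23, which encodes Qa-1 and presents leader peptides of other class I chains to natural killer receptors, differed by -0.05. H2-Q7, a gene of the Qa-2 antigen, differed by -0.05 as well, and H2-Q4 by -0.07. For all 3 the groups overlapped. The widest spread in this group was on H2-Q10 probe A_51_P230267, with -5.47, -6.02 and -6.60 in null samples and -5.10, -5.45 and -6.55 in wild-type samples. That probe was well above background on 2 arrays of each group. Probes of 1 gene disagreed in sign for H2-Bl (-0.17, -0.23 and 0.14), for H2-Q10 (-0.41 to 0.07) and for H2-Q2 (-0.04 and 0.03). Among the Q, T and M genes, H2-T3, H2-T18 and 8 of the H2-M genes (H2-M1, H2-M9, H2-M10.1, H2-M10.3, H2-M10.4, H2-M10.5, H2-M10.6 and H2-M11) were not tested, since their probes were well above background on at most 1 array.

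B2m, the light chain that every class I heavy chain needs to reach the surface, was lower in each null sample than in each wild-type sample on all 3 of its probes. Probe A_51_P129012 (chr2:121978401-121978460, mm9) measured 3.63, 3.65 and 3.57 in null samples, against 3.72, 3.75 and 3.81 in wild-type samples. The groups were separate, and the difference was -0.14 with a standard error of 0.0706 (limma, unadjusted p = 0.0906, adjusted p = 0.639). Probe A_51_P129006 (chr2:121978525-121978581) measured 2.08, 2.04 and 2.02 in null samples, against 2.09, 2.11 and 2.21 in wild-type samples. Here null replicate 1 and wild-type replicate 1 lay next to each other, and the difference was -0.09 (limma, adjusted p = 0.759).

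The third probe gave a larger difference. A_52_P105594 (chr2:121974599-121974658) lies upstream of the others and measured -3.79, -3.33 and -3.51 in null samples, against -2.84, -3.13 and -2.95 in wild-type samples. Every null sample was below every wild-type sample, and the level was 1.48-fold lower in null. The log2 difference was -0.57 with a standard error of 0.146 (limma, unadjusted p = 0.00813, adjusted p = 0.511). This was the member counted above as lower at an unadjusted p under 0.05. The 3 probes differed in size of difference, and none was past the adjusted threshold.

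Within slide 1 the B2m differences were -0.13, -0.06 and -0.41 in the same order, against a single wild-type sample. Genes induced by interferon also had lower means in null samples. Of a list of 12, 12 were lower in null (41.9% of all tested probes) with a median of -0.35, and 6 were lower at an unadjusted p under 0.05 (2.68% of all tested probes). Their summed level relative to the 75th percentile was 7.68 to 8.05 in null samples and 9.05 to 9.88 in wild-type samples. The list was chosen with earlier results of these data known, so its counts are not independent of them. The part of this list in the B2m result was not tested.

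**Figure D2:**
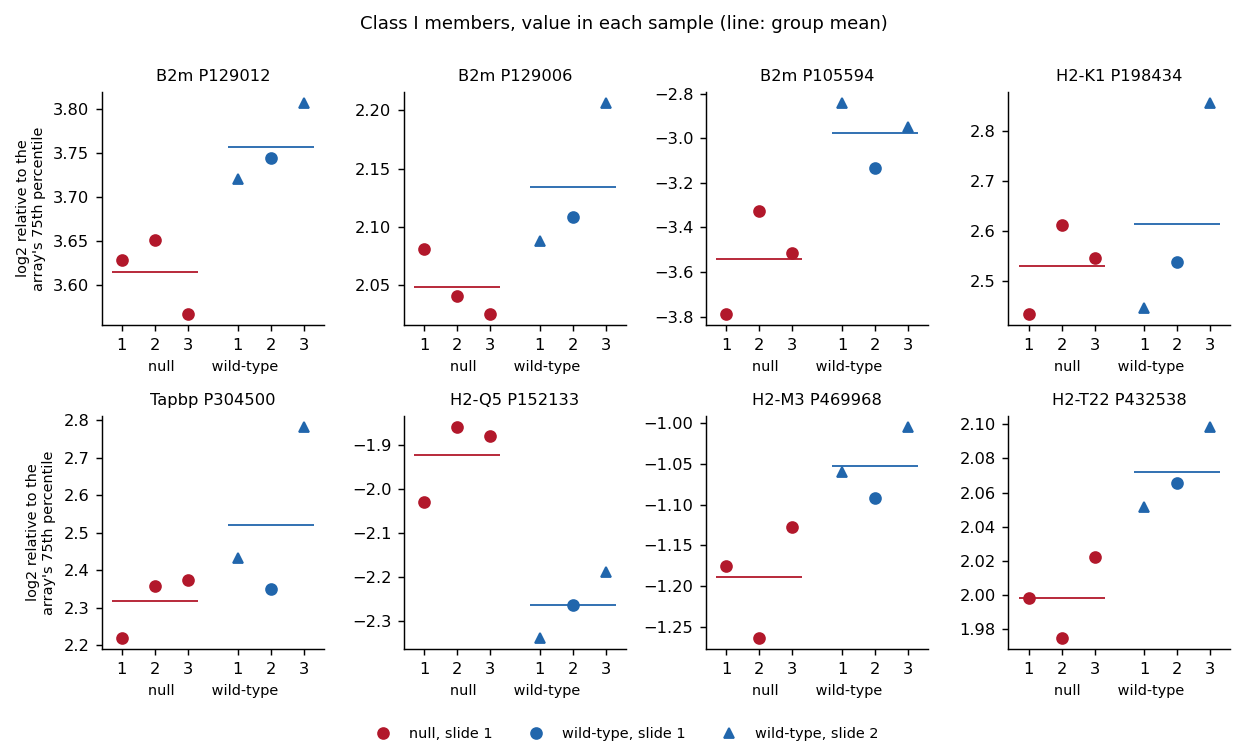
Log2 signal relative to the array's 75th percentile in each of the 3 null and 3 wild-type samples for 8 class I probes, each panel on its own y scale, with lines at group means and shapes for the slides. The 3 B2m probes, H2-M3 and H2-T22 have all null samples below the wild-type samples, H2-Q5 has them above, and on H2-K1 and Tapbp wild-type replicate 3 lies apart at the top.

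The genes that make and load class I peptides were measured by 7 probes, and all 7 differences were below 0, from -0.20 to -0.00091, with a median of -0.06. Psmb8, an immunoproteasome subunit, measured -0.79, -0.35 and -0.49 in null samples, against -0.55, -0.51 and -0.42 in wild-type samples (difference -0.05). Psmb9, another such subunit, measured -1.42, -1.10 and -1.35 in null samples, against -1.32, -1.25 and -0.87 in wild-type samples (difference -0.14). The groups overlapped for both.

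The TAP transporter subunits had lower means in null samples, with overlapping groups. Tap1 measured -5.20, -5.39 and -5.31 in null samples, against -5.02, -5.34 and -5.01 in wild-type samples. Tap2, which had the widest spread of this group, measured -2.84, -3.52 and -3.14 in null samples, against -3.34, -2.91 and -3.08 in wild-type samples. The groups overlapped for both subunits, with differences of -0.17 and -0.06 (limma, adjusted p = 0.713 and 0.944). Tapbp, or tapasin, which bridges TAP to the empty class I molecule, measured 2.22, 2.36 and 2.37 in null samples, against 2.43, 2.35 and 2.78 in wild-type samples. Wild-type replicate 3 was again the highest, and the difference was -0.20 (limma, adjusted p = 0.699). Tapbp probe A_52_P684830 differed by -0.03. Within slide 1, Tapbp differed by -0.03 on both probes.

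The class II chains had the largest differences and the widest spread among the members. All 7 tested probes of H2-Aa, H2-Ab1 and H2-Eb1 were lower in null by the group means, with a median of -0.77 and a range of -0.92 to -0.59, but the groups overlapped on each. H2-Aa, the alpha chain of the I-A molecule, measured -5.53, -4.09 and -3.44 in null samples, against -2.96, -4.32 and -3.02 in wild-type samples (probe A_52_P343306). Null replicate 1 was far below the rest, and wild-type replicate 2 lay among the null samples. The mean level was 1.89-fold lower in null, a log2 difference of -0.92 with a standard error of 0.627 (limma, adjusted p = 0.713). The second H2-Aa probe, whose sequence is printed above, spanned 2.66 over the 6 samples.

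H2-Ab1, the beta chain of I-A, measured -2.61, -1.20 and -0.64 in null samples, against -0.48, -1.36 and -0.12 in wild-type samples (probe A_52_P683598). Null replicate 1 was again the lowest sample, with a difference of -0.83 and a standard error of 0.571 (limma, adjusted p = 0.716). The other H2-Ab1 probes differed by -0.77, -0.60 and -0.59. H2-Eb1, the beta chain of I-E, measured -3.62, -2.69 and -2.20 in null samples, against -1.92, -2.70 and -1.68 in wild-type samples. Its difference was -0.74 with a standard error of 0.429 (limma, adjusted p = 0.676). The probe for the I-E alpha chain, named H2-Ea-ps in the files, and both H2-Eb2 probes were not tested because of low signal.

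Some members were printed several times on each array, which gives the noise within an array but not that of labelling, hybridisation or slide. H2-Ab1 probe A_51_P215237 had 10 spots. The standard deviation among these spots was 0.03 to 0.06 on the log2 scale, while the samples spanned 2.49. For B2m probe A_51_P129006, also with 10 spots, the spots had a standard deviation of 0.02 to 0.04 and the samples spanned 0.18. Of all tested probes, between 1.88% and 3.92% spanned a wider range over the 6 samples than the individual class II chain probes did. The median range was 2.49 for class II chain probes, 0.51 for all members and 0.44 for all tested probes.

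Ciita, the coactivator of class II transcription, and Cd74, the invariant chain, had the same 3 lowest samples as the class II chains. Cd74 measured -1.75, -0.38 and 0.42 in null samples, against 0.41, -0.48 and 0.51 in wild-type samples, a difference of -0.72 with a standard error of 0.583 (limma, adjusted p = 0.751). Ciita measured -7.09, -6.09 and -5.21 in null samples, against -5.41, -6.19 and -4.79 in wild-type samples, a difference of -0.67 (limma, adjusted p = 0.757). Ciita was well above background in 2 of 3 null samples and 3 of 3 wild-type samples. For both genes the groups overlapped.

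On 9 of 9 probes of the class II chains, Cd74 and Ciita, the 3 lowest samples were null replicates 1 and 2 and wild-type replicate 2, and null replicate 1 was the lowest of all. Among all tested probes 3.22% had these 3 samples lowest and 10.1% had null replicate 1 lowest. Of the 6 tested probes of the class II loading genes and Cd74, only 1, that of Cd74, had these 3 samples lowest. Over all 58 tested members it was 10. This order was noticed in the values and then counted, and it has no test. The 3 samples are all on slide 1, which also holds null replicate 3. Within slide 1, with 1 wild-type sample, the median difference of the 7 class II chain probes was -0.01 and 4 of 7 were lower. Leaving out null replicate 1 gave a median of -0.26, leaving out null replicate 3 a median of -1.22, and leaving out wild-type replicate 2 a median of -1.18. Ciita differed by 0.06 within slide 1. Slide 2 held no null sample.

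**Figure D3:**
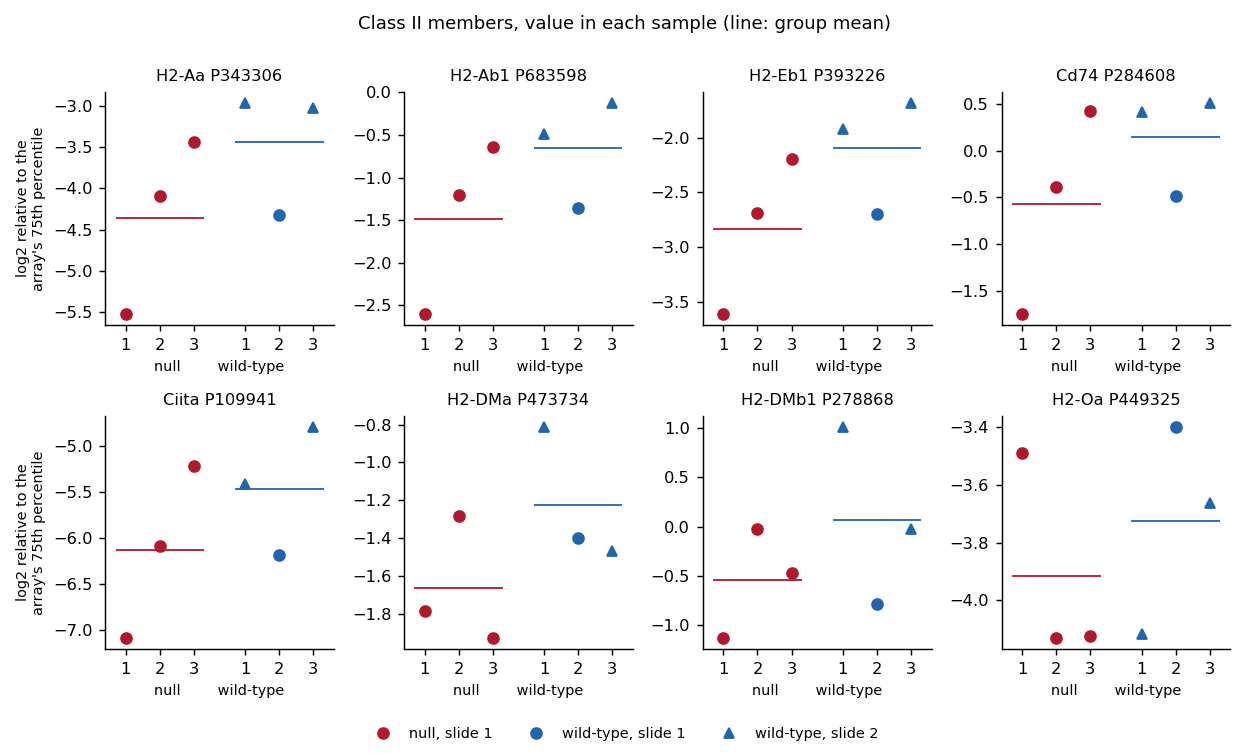
Log2 signal relative to the array's 75th percentile in each of the 3 null and 3 wild-type samples for 8 class II probes, each panel on its own y scale, with lines at group means and shapes for the slides. Null replicate 1 is lowest and wild-type replicate 2 lies within the null range for H2-Aa, H2-Ab1, H2-Eb1, Cd74 and Ciita, while H2-Oa has another order.

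The genes that load class II showed a mixed picture. H2-DMa, a chain of the peptide exchange factor, measured -1.79, -1.28 and -1.93 in null samples, against -0.81, -1.40 and -1.47 in wild-type samples. The groups overlapped, and the difference was -0.44 with a standard error of 0.244 (limma, adjusted p = 0.663). H2-DMb1, its partner chain, measured -1.13, -0.03 and -0.47 in null samples, against 1.01, -0.79 and -0.02 in wild-type samples (probe A_51_P278868). Wild-type replicate 1 was the highest for both H2-DM chains. Both H2-DMb1 probes differed by -0.61, and within slide 1 by 0.24 and 0.18. H2-Oa, a chain of the H2-O modulator of H2-DM, differed by -0.19 and -0.05 and had null replicate 1 among its higher samples, with -3.49, -4.13 and -4.12 in null samples against -4.12, -3.40 and -3.66 in wild-type samples. The probes of H2-DMb2 and H2-Ob were not well above background on any array.

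Lists of marker genes were set beside the class II values. In bulk tissue, fewer cells of a type and less RNA per cell cannot be told apart. Border macrophages, which line the meninges and vessels and can carry class II, were read from Mrc1, Cd163, Lyve1, F13a1, Pf4 and Ms4a7. All 6 genes were tested, and the list does not tell cells with class II from cells without it. As a mean deviation from each gene's 6-sample mean, this list stood at -1.38, -0.0018 and 0.83 in null replicates 1, 2 and 3, against -0.14, -0.58 and 1.28 in wild-type replicates 1, 2 and 3. The 7 class II chain probes stood at -1.45, -0.17 and 0.47 in null samples, against 0.67, -0.38 and 0.86 in wild-type samples. Null replicate 1 was lowest and wild-type replicate 3 highest in both, while wild-type replicate 1 was high for class II and near its mean for the border macrophage list.

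The border macrophage list had 5 of 6 genes lower in null and none at an unadjusted p under 0.05. Its summed level was 0.906 to 3.22 in null samples and 1.28 to 4.03 in wild-type samples. Fibroblast genes of the meninges (Dcn, Lum, Col1a1, Col1a2 and Pdgfra) stood at -1.35, -0.28 and 0.39 in null samples, against 0.40, -0.40 and 1.24 in wild-type samples. This list had 4 of 5 genes lower, while Pdgfra differed by 0.0078. The summed level of the list was 12.6 to 51.4 in null samples and 23.5 to 83.6 in wild-type samples. On 4 of these 5 genes, all but Pdgfra, the 3 lowest samples were those of the class II chains. The same held on 3 of the 6 border macrophage genes.

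Other cell types that can carry class II did not have this order. Of 8 microglia genes, 0 had these 3 samples lowest, and the summed level was 24.3 to 26.4 in null samples and 17.4 to 26.2 in wild-type samples. Of the 8, 7 were higher in null (58.1% of all tested probes). At an unadjusted p under 0.05, 2 of the 8 were higher (Aif1 and Fcrls), against 5.51% of all tested probes. The dendritic cell list had 0 of 4 tested genes with this order, and Cd209a, Ccr7 and Clec9a were not tested because of low signal. Its summed level was 0.386 to 0.441 in null samples and 0.400 to 0.417 in wild-type samples. The B cell and plasma cell list had 0 of 6 tested genes with this order. At an unadjusted p under 0.05, 2 genes were lower (Ms4a1 and Tnfrsf17), against 2.68% of all tested probes. Both genes were well above background in only 1 of 3 null samples and in 3 of 3 wild-type samples. The list had summed levels of 0.252 to 0.432 in null samples and 0.273 to 0.478 in wild-type samples. Pax5 was not tested. The part of these cell types in the class II values was not tested.

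**Figure D4:**
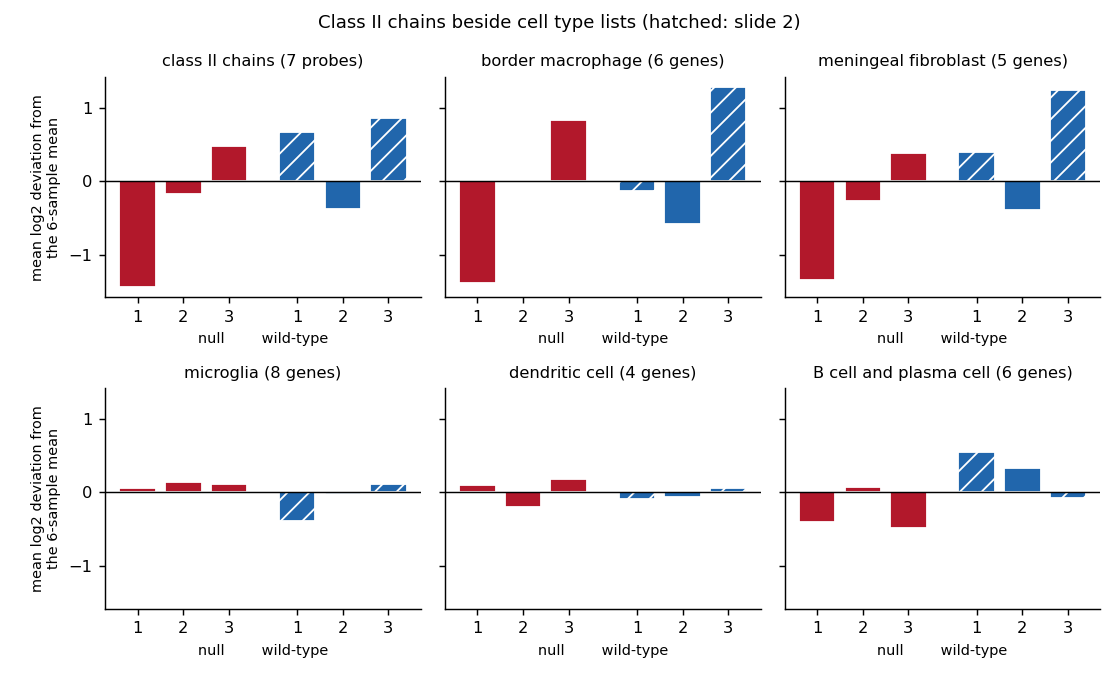
Mean log2 deviation from the 6-sample mean in each null (red) and wild-type (blue) sample, for the 7 class II chain probes and 5 lists of cell type markers, with hatching for slide 2. The class II bars are lowest in null replicate 1 at -1.45, as are the border macrophage (-1.38) and meningeal fibroblast (-1.35) bars, while the microglia and dendritic cell bars stay within -0.39 and 0.18.

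Promoters of class II genes carry a conserved module that includes the Y box, bound by the NF-Y complex, and class I and B2m promoters carry an element for interferon regulatory factors. The 250 bases before the transcription start are printed from RefSeq (GRCm38.p6), 5′ to 3′ on the strand of the gene. H2-Aa (chr17:34287824-34288073, minus strand) and H2-Eb1 (chr17:34305617-34305866, plus strand) are shown because their probes shared the same 3 lowest samples. B2m (chr2:122147437-122147686, plus strand) is shown because its 3 probes had separate groups. Capitals mark the Y box letters CTGATTGG and the interferon element letters AANNGAAA, searched on both strands.
H2-Aa: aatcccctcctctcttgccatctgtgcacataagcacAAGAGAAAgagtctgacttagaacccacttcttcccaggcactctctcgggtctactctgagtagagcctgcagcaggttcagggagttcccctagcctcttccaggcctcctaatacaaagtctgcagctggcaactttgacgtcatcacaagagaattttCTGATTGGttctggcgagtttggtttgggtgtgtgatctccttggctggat
H2-Eb1: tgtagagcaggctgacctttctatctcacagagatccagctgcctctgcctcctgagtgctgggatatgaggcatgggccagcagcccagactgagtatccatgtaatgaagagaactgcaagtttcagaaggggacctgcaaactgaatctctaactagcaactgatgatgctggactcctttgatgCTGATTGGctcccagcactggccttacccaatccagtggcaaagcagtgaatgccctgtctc
B2m: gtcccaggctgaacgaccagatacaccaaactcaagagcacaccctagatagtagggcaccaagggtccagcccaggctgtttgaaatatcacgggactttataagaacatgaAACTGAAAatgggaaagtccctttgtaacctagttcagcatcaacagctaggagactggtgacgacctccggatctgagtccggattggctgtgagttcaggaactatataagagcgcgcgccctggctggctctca
In windows of 250 bases before to 50 after the start, the Y box letters were found in 4.10% of 32851 windows and the interferon element letters in 23.9%. Of 34 member genes with a window, 17 held the Y box letters (4.70% of all genes with a window) and 18 held the interferon element letters (26.7% of all genes). The Y box letters were in the windows of H2-Aa, H2-Eb1 and H2-Eb2, which are all 3 class II chain genes with a window. They were in 1 of 5 class II loading genes (H2-Oa). Most of the 17 were not class II genes: 10 were among the 18 class Ib genes, and H2-K1, Psmb9 and Tap1 held the letters too. A match is a description of the letters and not of binding.

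The remaining H2- names were near 0. H2-Ke2, now named Pfdn6, a subunit of the prefoldin chaperone, differed by -0.03, and H2-Ke6, a steroid dehydrogenase, by 0.03. H2-D4 differed by 0.08. H2-K2 had the widest spread of these, with 0.77, 0.98 and 0.89 in null samples against 0.77, 0.91 and 1.16 in wild-type samples, and it differed by -0.07.

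A list of 43 other genes of antigen presentation was read beside the members. All 43 were tested, 21 were higher and 22 lower in null, and the median difference was -0.02. None passed the adjusted threshold, and 1 in each direction had an unadjusted p under 0.05. Of all tested probes, 5.51% were higher and 2.68% lower at that level, so these counts do not set the list apart. Ctss, the protease that trims the invariant chain, measured 4.83, 4.65 and 4.84 in null samples, against 4.02, 4.64 and 4.33 in wild-type samples. The groups did not overlap, though null replicate 2 and wild-type replicate 2 were nearly equal, and the difference was 0.44 with a standard error of 0.169 (limma, unadjusted p = 0.0403, adjusted p = 0.597). Microglia are a known source of Ctss. Of their 8 markers 7, all but P2ry12, were higher in null, against 58.1% of all tested probes. Their mean deviation was 0.05, 0.14 and 0.11 in null replicates 1, 2 and 3. In wild-type replicates 1, 2 and 3 it was -0.39, -0.03 and 0.12, and wild-type replicate 1 was also the lowest sample for Ctss. The part of microglia in the Ctss value was not tested.

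Cd40, a costimulatory receptor on antigen-presenting cells, measured -5.55, -5.58 and -5.61 in null samples, against -5.24, -5.18 and -5.09 in wild-type samples. All null samples lay below all wild-type samples, and the difference was -0.41 with a standard error of 0.0750 (limma, unadjusted p = 0.00169, adjusted p = 0.358). Of the transcription factors for class I and class II, Nlrc5 differed by 0.23, Rfx5 by -0.09, Rfxap by -0.06, Rfxank by 0.06 and Irf1 by -0.24, all with overlapping groups.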

How the data were processed

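Spinal cord RNA of 3 dhtkd1 null and 3 wild-type samples was measured on Agilent array design 014868. The deposited files hold the intensity of each spot from Feature Extraction 10.7.3.1, per the file headers, subtracted for background and detrended within the array but not normalized between arrays. The deposited value table holds log2 values whose method is not given in the sources used here, and it served as an alternative only.

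From the intensity, log2 values minus each array's 75th percentile over non-control spots were computed, spots marked as outliers (58 to 89 on an array) were dropped, and repeated spots were averaged. A probe was tested when well above background on at least 3 of 6 arrays, which left 33191 probes. The comparison, null minus wild-type, was fitted per probe by a 2-sided moderated test (R 4.3.3, limma 3.58.1, functions lmFit and eBayes), without covariates, with Benjamini-Hochberg adjustment over all tested probes, called at an adjusted p under 0.05. The fit was tested on simulated data. The number of arrays limits the precision.

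Values in every sample are given for the brightest tested probe of H2-K1, B2m, Tap1, Tap2, Tapbp, Psmb8, Psmb9, H2-Aa, H2-Ab1, H2-Eb1, H2-DMa, Cd74 and Ciita, for each member with separate groups or an unadjusted p under 0.05, and for the widest spread in each role. H2-DMb1 and H2-Oa, and probe A_52_P474242 of H2-K1, were added after their values were seen. From the list of other presentation genes, those at an unadjusted p under 0.05 are given. The 5 transcription factors named there were also chosen after their values were seen. In the lists a gene is represented by its brightest tested probe, and 1 list gene is not reported here by name. A list's summed level adds linear values relative to the 75th percentile. The members and all lists were chosen with earlier results of these data known. Promoter windows came from RefSeq (GRCm38.p6), and probes were not realigned. The settings besides this one, 19 in all, cover normalization, background, filters, outliers, slide, replicate number, 1 probe per gene name, limma options and each sample left out.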

Additional observations from a re-analysis of the deposited data

How the results depend on the processing

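No alternative gave a member an adjusted p under 0.05, and the lowest member value over all 19 was 0.340 (limma, without wild-type replicate 1). The count of all probes past the adjusted threshold was 0, and it was 1 with normexp background correction, 7 with trend and robust limma options, and 0 to 4 when 1 sample was left out (1 without null replicate 1 and 4 without null replicate 2). The count of members lower at an unadjusted p under 0.05 was 1. It was 2 with normexp and with trend and robust options, 0 with 1 probe per gene name, on slide 1 alone and with slide as a fixed block, and 1 to 2 when 1 sample was left out, with 2 without null replicate 2 and 2 without wild-type replicate 2. Members with a lower mean in null numbered 36 to 50 of 58 over the settings that tested all 58. Centring on the median turned 58.1% of all probes higher into 45.7%, with 50 members lower, and quantile normalization gave 50.3%. With slide as a fixed block the class II chain median was -0.01, and with normexp it was -0.46. The cause was not tested. Replicate numbers did not pair the samples: deviations of null and wild-type samples of the same number correlated at -0.02, -0.09 and 0.30 across probes. With the replicate block 0 probes passed, the member median was -0.07 and the class II chain median was -0.77. Slide as a random block had an estimated correlation of 0.00398 and a class II chain median of -0.77. For the named single probes, 404 values under alternatives moved by less than the spread between samples. The other 7 were B2m at -0.14 and -0.19 (P129006 and P129012) and H2-T22 at -0.12 with median centring, B2m P105594 at -0.32 and H2-Q5 at 0.23 with normexp, and Tap1 at 0.04 both within slide 1 and with slide as a fixed block. Many of the 404 could not move. The filters, 1 probe per gene name, the replicate block and the limma options leave the difference of a probe unchanged. Slide 1 alone and slide as a fixed block give the same difference, since slide 2 held no null sample. Both H2-Aa probes and the H2-Eb1 and Cd74 probes stayed below 0 in all alternatives that tested them, though by as little as -0.01 for H2-Aa, while 3 of the 4 H2-Ab1 probes were above 0 within slide 1 and with slide as a fixed block, at 0.04, 0.11 and 0.11.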

Other observations

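Repeated spots of class I members give the noise within an array only. H2-K1 probe A_51_P198434 was printed 10 times per array, and its spots had a standard deviation of 0.03 to 0.05 on the log2 scale, while the 6 samples spanned 0.42. For H2-Q7 the spots had a standard deviation of 0.04 to 0.06 and the samples spanned 0.32. For H2-M2 the spots had a standard deviation of 0.05 to 0.09 and the samples spanned 0.28. Over all 58 tested member probes, null replicate 1 was the lowest sample on 27 and wild-type replicate 3 the highest on 29. Null replicate 1 was the lowest on 10.1% of all tested probes, and wild-type replicate 3 the highest on 14.3%. These counts were made after the values were seen and have no test.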
